A study of Mus musculus with 16 samples.

Results

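Magt1 encodes an oxidoreductase subunit of the oligosaccharyltransferase (OST), the membrane complex of the endoplasmic reticulum that attaches glycans to asparagine residues of newly made proteins. MAGT1 belongs to the form of the complex built around the catalytic subunit STT3B, which modifies sites that the STT3A form has passed over, many of them near cysteines. The protein was first described as a magnesium transporter, and inherited loss of it causes an X-linked immune disorder in people. Magt1 (ENSMUSG00000031232) is 1 of 49114 genes with a matched transcript in these data. It was chosen by its fold change of KO DHT over KO DMSO, so every value of that comparison is given as a description and without a test. Its paralog Tusc3, chosen with it, is not analysed here.

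RNA was measured in 16 cultures of neural progenitors from the cortex of E18.5 mouse embryos, in 4 groups of 4 replicates. All cultures had received a lentivirus that makes Cas9 and had been selected with puromycin for 48 h. The KO cultures carried a guide RNA against Chd1, which encodes a chromatin remodeller, and the WT cultures carried Cas9 without a guide. KO DHT+ENZ cultures received 10 µM enzalutamide (ENZ), an antagonist of the androgen receptor, and 30 min later 10 nM dihydrotestosterone (DHT), an androgen. KO DHT cultures received 10 nM DHT alone, and KO DMSO and WT DMSO cultures received the vehicle. DHT was present for 24 h. The KO cultures are transduced and selected pools, and no clone is named in the labels. The growth protocol and the series' design text name different lentiviral vectors. Embryos of 2 litters supplied the replicates, with no litter named for any of them. WT cells were not given DHT, and ENZ was not given without it, so the effect of the genotype on the response to DHT and that of ENZ by itself were not measured.

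Total estimated counts were 31.8 to 36.9 M (M, mega) in 15 libraries and 20.2 M in WT DMSO replicate 1, which stands apart in depth. All 8 neural progenitor markers were detected in every group, with summed levels of 6016 to 7360 TPM in KO DHT+ENZ, 6527 to 7510 in KO DHT, 6623 to 8008 in KO DMSO and 6734 to 7909 in WT DMSO (TPM is a transcript abundance scaled by length and to a fixed library sum). The 5 microglial markers summed to at most 5.71 TPM in any library, while over all libraries the sums were 248 to 514 TPM for 6 neuronal markers, 381 to 527 TPM for 5 astrocyte markers and 442 to 596 TPM for 6 markers of the oligodendrocyte lineage. Chd1, the target of the guide, had 59.9 to 72.9 CPM (estimated counts scaled to a common library size) in KO DHT+ENZ, 68.5 to 77.0 in KO DHT, 65.2 to 71.0 in KO DMSO and 60.2 to 73.8 in WT DMSO. Its RNA was therefore not lower in the libraries labelled KO (KO DMSO over WT DMSO had a log2 value of 0.01, SE 0.08; adjusted p = 1, edgeR). Small edits need not lower an RNA, edits were not measured here, and KO is used as the label gives it. In such bulk samples, a change in the share of cells that express a gene and a change in its RNA per cell cannot be told apart.

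The files hold 4 Magt1 transcripts, from the minus strand of chromosome X. Their lengths equal those in the GENCODE M21 annotation (GRCm38), from which the transcript structures and sequences below were read. Magt1-204 (ENSMUST00000151689.9) has 4531 bases in 10 exons, and Magt1-201 (ENSMUST00000033583.14) has 4115 bases in 11 exons. Both hold the same coding sequence of 1104 bases, so the annotation gives them the same protein. They differ in the 3′ untranslated region. A block of 409 bases, which starts with GT and ends with AG like an intron, begins 28 bases after the stop codon. Magt1-204 keeps the block inside its last exon, at transcript positions 1180 to 1588, and Magt1-201 splices it out. Magt1-204 also has 7 further bases at its 5′ end. Magt1-202 (ENSMUST00000113566.10, 1608 bases) shares the splice junction of Magt1-201, and Magt1-203 (ENSMUST00000139421.3, 1059 bases) ends before it. Both are annotated with an incomplete 5′ end.

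The following stretches of 30 bases are shown because they are what separates the 2 main forms, and capitals mark the retained block.
Magt1-201 joined: gaaacattgacactgatgtgtgtgctttac
Magt1-204 start of retained block: gaaacattgacactgGTAATGGAAACTGAA
Magt1-204 end of retained block: TCCTTCTTTGTGCAGatgtgtgtgctttac
The first stretch covers positions 1158 to 1187 of Magt1-201, and the others cover positions 1165 to 1194 and 1574 to 1603 of Magt1-204. The block makes up 9.03% of Magt1-204 and has a GC content of 34.5%. Of the 439 words of 31 bases that touch it, 438 occur in Magt1-204 alone, and none occurs in an annotated transcript of another gene. Reads that fall wholly in the remaining shared sequence cannot tell the 2 forms apart, and kallisto divides them by its model. The values of single transcripts are therefore estimates, and reads over the block itself were not analysed here.

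**Figure D1:**
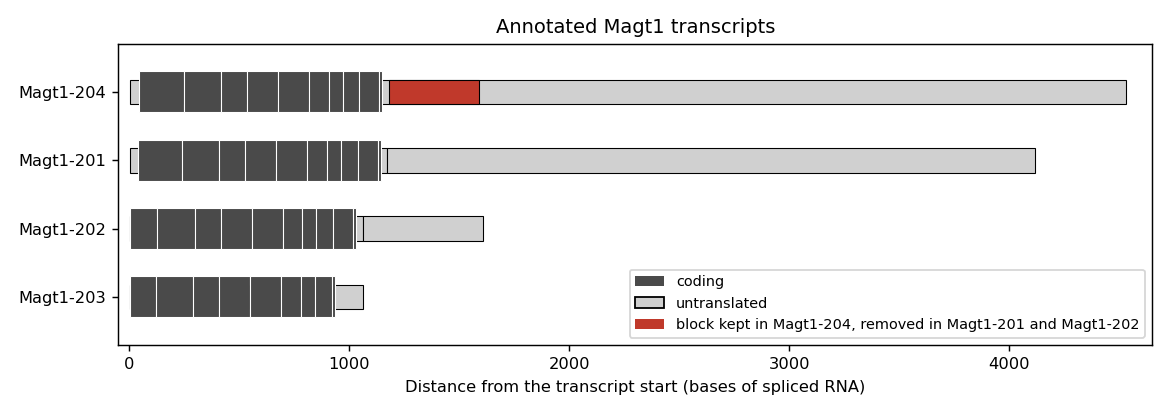
The 4 annotated Magt1 transcripts drawn to scale, with distance in bases of spliced RNA from the transcript start on the horizontal axis. Dark boxes are coding exons, grey boxes are untranslated, and the red box is the block of 409 bases that Magt1-204 keeps and that Magt1-201 and Magt1-202 remove.

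In all 4 same-numbered pairs the KO DHT library had more Magt1 RNA than the KO DMSO library, and 1 transcript, Magt1-204, carried the difference. In replicates 1 to 4, the gene had 79.6, 54.8, 77.4 and 71.9 CPM in KO DHT, against 44.7, 29.2, 45.8 and 42.6 CPM in KO DMSO. The lowest KO DHT library lay above the highest KO DMSO library. The choice of Magt1 on this comparison favours such a separation, and how many of all genes separate so was not counted. Replicate 2 was the lowest of both groups. The mean was 70.9 ± 11.2 CPM in KO DHT and 40.6 ± 7.69 CPM in KO DMSO (SD, n = 4 each). The fold change within pairs 1 to 4 was 1.78, 1.87, 1.69 and 1.69, so the pairs differed little in their ratio although their levels differed. The fitted log2 fold change was 0.80 (SE 0.25). With each of the 16 libraries left out in turn it ran from 0.67 to 0.90, and 0.67 was the value without KO DMSO replicate 2. Fits without a WT DMSO or KO DHT+ENZ library left both compared groups whole. None of these fits is independent of the choice of Magt1. In this comparison 0% of the 16969 genes tested were called at an adjusted p under 0.05 in edgeR, and 193 genes had an unadjusted p under 0.05. DESeq2 also called 0 genes, with 235 at an unadjusted p under 0.05.

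Magt1-204 had 58.6, 38.2, 55.1 and 56.2 CPM in KO DHT replicates 1 to 4, against 23.8, 7.39, 21.4 and 25.1 CPM in KO DMSO. The groups did not overlap, a separation that the choice of Magt1 on this comparison favours. KO DMSO replicate 2 stood below the other 3 KO DMSO libraries. Within pairs, Magt1-204 was 2.46, 5.17, 2.58 and 2.24 times as high in KO DHT, and the wide ratio of pair 2 comes with its low KO DMSO value. Magt1-201, the form without the block, had 20.6, 15.3, 22.2 and 14.8 CPM in KO DHT, against 20.9, 21.9, 24.5 and 13.8 CPM in KO DMSO. These groups overlapped over most of their range. The fitted log2 fold change of KO DHT over KO DMSO was 1.41 (SE 0.54) for Magt1-204 and -0.18 (SE 0.27) for Magt1-201.

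The mean difference between KO DHT and KO DMSO was 30.3 CPM for the gene and 32.6 CPM for Magt1-204, or 108% of it. The other 3 transcripts together differed by -2.32 CPM, with 18.9 ± 3.19 CPM in KO DHT and 21.2 ± 2.87 CPM in KO DMSO (SD, n = 4 each). In pairs 1 to 4, Magt1-204 made up 99.9%, 121%, 107% and 106% of the gene's difference, so each pair shows the same division. The share of Magt1 TPM assigned to Magt1-204 was 70.3%, 63.5%, 69.1% and 73.0% in KO DHT, against 50.6%, 23.3%, 44.01% and 46.5% in KO DMSO. The groups did not overlap, again on the comparison for which Magt1 was chosen. The means were 69.0 ± 4.00% in KO DHT and 41.1 ± 12.2% in KO DMSO (SD, n = 4 each). KO DMSO replicate 2 stood below the other 3 KO DMSO libraries.

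**Figure D2:**
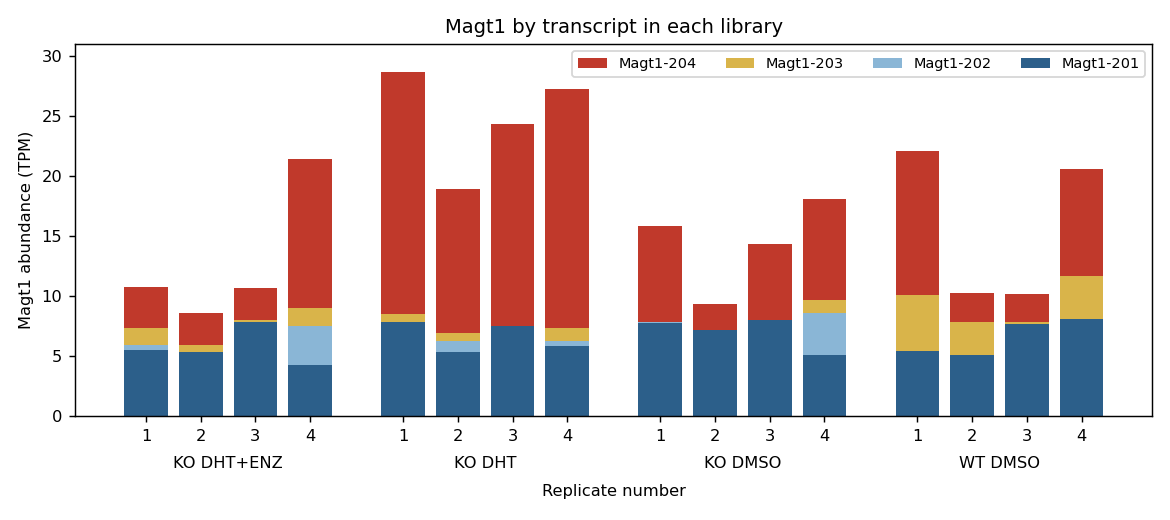
Magt1 abundance in TPM on the vertical axis for each of the 16 libraries, by group and replicate number, with each bar divided into the 4 transcripts. The red part, Magt1-204, lies at 12.03 to 20.1 TPM in the 4 KO DHT libraries, with KO DHT+ENZ replicate 4 at 12.4 TPM and WT DMSO replicate 1 at 12.02 TPM close to the lowest of them, while the dark blue part, Magt1-201, lies between 4.30 and 8.06 TPM in all libraries.

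The short transcripts were near the limit of what could be estimated. Magt1-202 had 0.425, 0, 0 and 3.22 TPM in KO DHT+ENZ, 0, 0.947, 0 and 0.443 TPM in KO DHT, and 0.0267, 0, 0 and 3.44 TPM in KO DMSO, and it was below 0.001 TPM in every WT DMSO library. Its 2 high values both came from a replicate 4. Magt1-203 had 1.41, 0.629, 0.231 and 1.46 TPM in KO DHT+ENZ, 0.646, 0.628, 0 and 1.09 TPM in KO DHT, 0, 0, 0 and 1.08 TPM in KO DMSO, and 4.66, 2.72, 0.121 and 3.66 TPM in WT DMSO. The WT DMSO libraries other than replicate 3 lay above all KO libraries for this transcript, at no more than 62.9 estimated counts each. Its unadjusted p for KO DMSO over WT DMSO was 0.0277, and its adjusted p over all 50603 transcripts tested was 1 (edgeR). An estimate of 0 can arise from the division of shared reads, so no fold change is given for either short form.

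With enzalutamide added before DHT, Magt1 in CPM lay below every KO DHT library in all 4 replicates. In TPM the groups overlapped: KO DHT+ENZ replicate 4 had 21.4 TPM of the gene and 12.4 TPM of Magt1-204, against 18.96 and 12.03 TPM in KO DHT replicate 2. The gene had 26.3, 27.0, 34.3 and 52.6 CPM in KO DHT+ENZ, against 79.6, 54.8, 77.4 and 71.9 CPM in KO DHT. In CPM, KO DHT+ENZ replicate 4 lay apart from the other 3, just under the lowest KO DHT library. The mean was 35.1 ± 12.3 CPM in KO DHT+ENZ and 70.9 ± 11.2 CPM in KO DHT (SD, n = 4 each), and the fitted log2 fold change was -1.02 (SE 0.25). It was negative in 4 of 4 pairs, with an unadjusted p of 0.000966 and an adjusted p of 0.139 over all genes, so it did not pass (edgeR quasi-likelihood test, Benjamini-Hochberg adjustment). With the replicate number added to the edgeR model as a block, the log2 fold change was -1.03 (SE 0.17; adjusted p = 0.00516), and in DESeq2 it was -1.01 (SE 0.25; adjusted p = 0.00842). Both passed. Of all genes, 0.265% were called in edgeR without the block, 3.48% with it and 1.24% in DESeq2. The KO DHT libraries of this comparison are those on which Magt1 was chosen as high, so its size and p are no independent evidence of a fall.

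The same transcript carried this difference. Magt1-204 had 10.2, 9.45, 9.23 and 37.3 CPM in KO DHT+ENZ, against 58.6, 38.2, 55.1 and 56.2 CPM in KO DHT. In replicates 1 to 3 it was between 0.167 and 0.247 times its KO DHT level, and in replicate 4 it was 0.664 times that level. Magt1-201 had 15.0, 17.2, 24.955 and 11.6 CPM in KO DHT+ENZ, against 20.6, 15.3, 22.2 and 14.8 CPM in KO DHT, and these groups overlapped. Of the gene's mean difference of -35.8 CPM, -35.5 CPM (99.0%) lay in Magt1-204. The transcript's log2 fold change was -1.66 (SE 0.54; adjusted p = 1, edgeR), and it was -1.85 (SE 0.42; adjusted p = 0.213) with the replicate block, so it did not pass among the 50603 transcripts tested. With KO DHT+ENZ replicate 4 left out, it was -2.41 (SE 0.50; adjusted p = 1). No transcript was called in this comparison without the block (0%), and 0.0692% were called with it.

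The share of Magt1 TPM in Magt1-204 was 31.5%, 30.8%, 24.5% and 58.0% in KO DHT+ENZ, against 70.3%, 63.5%, 69.1% and 73.0% in KO DHT. The means of 36.2 ± 14.9% and 69.0 ± 4.00% (SD, n = 4 each) differed by -32.8 percentage points, and the share was lower in 4 of 4 pairs. The two-sided exact permutation test gave p = 0.0286, the smallest that 4 against 4 libraries allow, and the value was 0.114 after Benjamini-Hochberg adjustment over the 4 share tests made. It did not pass the adjustment. The KO DHT libraries are those on which Magt1 was chosen as high, and Magt1-204 carried that difference. Tests of the share and of Magt1-204 against them are therefore not independent of that choice.

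**Figure D3:**
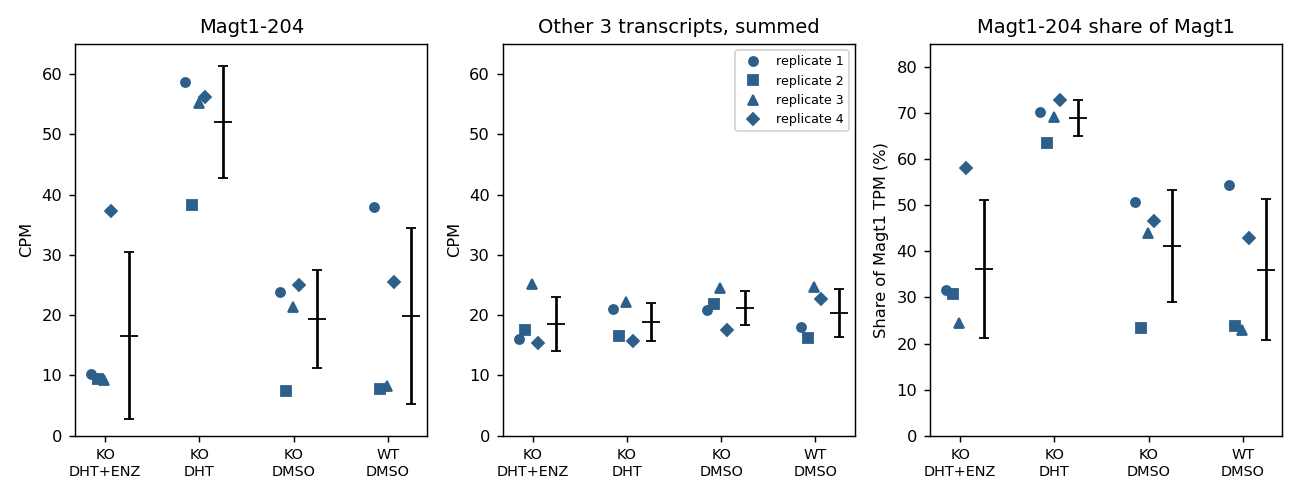
Each point is 1 library, marked by replicate number, and the black bars give the mean and SD of the 4 libraries of a group. The left panel gives Magt1-204 in CPM, the middle panel the other 3 transcripts summed in CPM, and the right panel the percentage of Magt1 TPM in Magt1-204. Magt1-204 averages 52.0 CPM in KO DHT and 16.6 to 19.9 CPM in the other groups, while the sum of the others averages 18.52 to 21.2 CPM in every group.

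Against the vehicle cultures, KO DHT+ENZ differed in Magt1 by less than the spread between replicates. The comparison with KO DMSO set 26.3, 27.0, 34.3 and 52.6 CPM in KO DHT+ENZ against 44.7, 29.2, 45.8 and 42.6 CPM in KO DMSO, with a log2 fold change of -0.21 (SE 0.25; adjusted p = 1, edgeR). The KO DMSO libraries are also those on which Magt1 was chosen, so tests that use them, here and against WT DMSO, are not independent of that choice. The ranges overlapped. Magt1 was lower in 3 pairs and higher in pair 4, and with KO DHT+ENZ replicate 4 left out the log2 fold change was -0.48 (SE 0.24; adjusted p = 1). Genes were called in 0.253% of all tests here. The Magt1-204 share was 36.2 ± 14.9% in KO DHT+ENZ and 41.1 ± 12.2% in KO DMSO (SD, n = 4 each; exact permutation p = 0.571).

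The comparison of KO DHT+ENZ with WT DMSO shares no library with the one on which Magt1 was chosen. Magt1 had 55.9, 24.1, 33.0 and 48.2 CPM in WT DMSO replicates 1 to 4, so that the KO DHT+ENZ range of 26.3 to 52.6 CPM lay inside that of WT DMSO. The log2 fold change was -0.20 (SE 0.25; adjusted p = 0.877, edgeR), beside 0.289% of genes called. Without WT DMSO replicate 1, the shallowest library, it was -0.00 (SE 0.25), and without KO DHT+ENZ replicate 4 it was -0.46 (SE 0.24; adjusted p = 0.674). Magt1-204 had 37.9, 7.82, 8.28 and 25.5 CPM in WT DMSO, and the share was 36.2 ± 14.9% in KO DHT+ENZ and 36.03 ± 15.4% in WT DMSO (SD, n = 4 each; exact permutation p = 1).

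Magt1 had nearly equal means in KO DMSO and WT DMSO, at 40.6 ± 7.69 CPM in KO DMSO and 40.3 ± 14.4 CPM in WT DMSO (SD, n = 4 each). The log2 fold change was 0.01 (SE 0.25; adjusted p = 1, edgeR), with KO DMSO higher in 2 of 4 pairs, and 0% of genes were called. At an unadjusted p under 0.05 there were 508 genes in edgeR and 552 in DESeq2, which also called 0 genes. Without WT DMSO replicate 1 the log2 fold change was 0.21 (SE 0.26; adjusted p = 1). Magt1-204 averaged 19.4 ± 8.16 CPM in KO DMSO and 19.9 ± 14.6 CPM in WT DMSO, and Magt1-201 averaged 20.3 ± 4.56 CPM in KO DMSO and 18.9 ± 4.71 CPM in WT DMSO (SD, n = 4 each). The share in Magt1-204 was 41.1 ± 12.2% in KO DMSO and 36.03 ± 15.4% in WT DMSO (exact permutation p = 0.686, n = 4 each).

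Ordered by gene level, KO DHT was highest, and KO DMSO, WT DMSO and KO DHT+ENZ followed at 40.6, 40.3 and 35.1 CPM, with overlapping ranges and SDs that exceed the steps between them. Within groups, the SD of Magt1-204 was 13.9 CPM in KO DHT+ENZ, 9.33 in KO DHT, 8.16 in KO DMSO and 14.6 in WT DMSO, beside 5.65, 3.72, 4.56 and 4.71 CPM for Magt1-201 in these groups (n = 4 each). In KO DHT, where Magt1-204 averaged 52.0 CPM and Magt1-201 18.3 CPM, the spread was no wider relative to the mean for Magt1-204. Magt1-204 ran from 9.23 to 37.3 CPM in KO DHT+ENZ, 38.2 to 58.6 in KO DHT, 7.39 to 25.1 in KO DMSO and 7.82 to 37.9 in WT DMSO. Its lowest library was replicate 3 in KO DHT+ENZ, just under replicate 2, and replicate 2 in the other groups. Xist, the RNA that coats the inactive X chromosome, also differed by replicate number, with 116 to 181 TPM in replicates numbered 1, 60.4 to 101 in 2, 53.7 to 85.9 in 3 and 151 to 192 in 4. Ddx3y, Eif2s3y, Uty and Kdm5d, which are Y-linked, summed to 2.18 to 3.55 TPM in replicates numbered 1 and to at most 1.66 TPM in the others. The part of these genes in the spread of Magt1-204 was not tested.

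Transcripts that the annotation classes as retained introns held 2.56% to 4.17% of all TPM in KO DHT+ENZ, 2.86% to 4.36% in KO DHT, 2.79% to 4.23% in KO DMSO and 2.52% to 5.33% in WT DMSO, and these ranges overlapped. Within pairs 1 to 4 the value was 4.26%, 3.09%, 2.86% and 4.36% in KO DHT, against 4.13%, 2.785%, 2.79% and 4.23% in KO DMSO, so it was higher in KO DHT in 4 of 4 pairs, the direction of Magt1-204. The 2480 genes with a mean transcript length over 4000 bases had median log2 differences of 0.00, 0.17, 0.14 and 0.04 in pairs 1 to 4 of KO DHT over KO DMSO, beside 0.83, 0.91, 0.75 and 0.76 for Magt1. Long genes as a group were higher in KO DHT in pairs 2 to 4, and the part of either measure in the Magt1 difference was not tested.

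None of the other 10 OST subunits measured passed the test in KO DHT over KO DMSO, where 0% of all 16969 genes tested did. Magt1, which was chosen on this fold change, was the only subunit with a positive value. The other 10 lay between -0.25 and -0.05, with a median of -0.12 beside -0.00 for all genes tested. Stt3b, the catalytic subunit of the complex that holds MAGT1, had 247, 275, 272 and 277 CPM in KO DHT, against 270, 271, 294 and 281 CPM in KO DMSO, with a log2 fold change of -0.06 (SE 0.08). Stt3a, the catalytic subunit of the other complex, had a log2 fold change of -0.09 (SE 0.09). Those of Rpn1, Rpn2 and Ddost, which encode shared structural subunits, were -0.07, -0.05 and -0.08. The small shared subunits Dad1, Ost4 and Tmem258 had values of -0.16, -0.15 and -0.22. Ostc and Krtcap2, which tie the STT3A form to the protein-conducting channel, had values of -0.17 and -0.25. Each of these 10 had an adjusted p of 1 (edgeR).

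In KO DHT+ENZ over KO DHT, 0 of 11 subunits passed without the replicate block, beside 0.265% of all genes. With the block, Magt1 and Krtcap2 did, in opposite directions, beside 3.48% of all genes. Krtcap2 had 78.5, 113, 108 and 79.4 CPM in KO DHT+ENZ, against 70.1, 85.7, 76.5 and 63.2 CPM in KO DHT. It was higher in 4 of 4 pairs, with overlapping ranges and a log2 fold change of 0.36 (SE 0.16; adjusted p = 0.657, edgeR) or 0.35 (SE 0.08; adjusted p = 0.0203) with the block. The 10 subunits other than Magt1 had a median of 0.07 in this comparison, beside -0.00 for all genes. In KO DHT+ENZ over KO DMSO, KO DHT+ENZ over WT DMSO and KO DMSO over WT DMSO, their medians were -0.05, 0.03 and 0.02 and none passed in edgeR with or without the block. The block raised the share of all genes called to 2.94% and 4.58% in KO DHT+ENZ over KO DMSO and over WT DMSO, and it stayed at 0% in KO DMSO over WT DMSO.

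Measured per length, Magt1 was the least abundant of the 11 subunits measured, Tusc3 not being among them. Its mean over the 16 libraries was 17.0 TPM, against 85.1 TPM for Stt3a, 92.5 TPM for Stt3b and 155 to 248 TPM for the 8 others. By group, Magt1 had 12.9 ± 5.78 TPM in KO DHT+ENZ, 24.8 ± 4.28 TPM in KO DHT, 14.4 ± 3.68 TPM in KO DMSO and 15.8 ± 6.44 TPM in WT DMSO (SD, n = 4 each). Stt3b had 90.6 ± 6.87, 95.1 ± 7.24, 95.0 ± 6.34 and 89.1 ± 10.4 TPM in the same groups, so Magt1 stayed below it throughout.

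**Figure D4:**
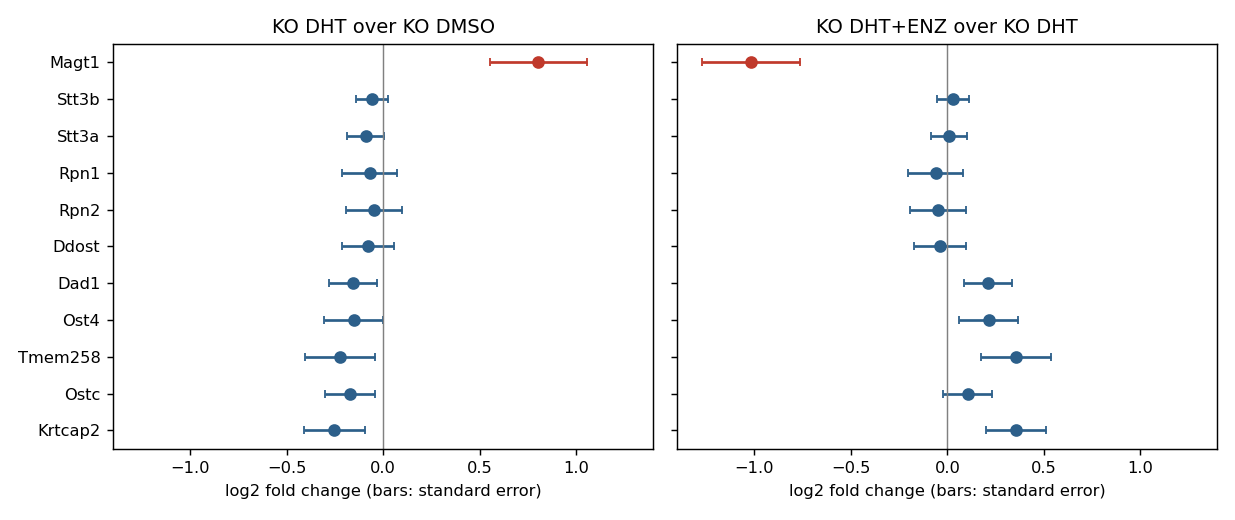
Log2 fold changes of the 11 measured OST subunits, with bars of 1 standard error from the edgeR model without the block, for KO DHT over KO DMSO on the left and KO DHT+ENZ over KO DHT on the right. Magt1, in red, lies at 0.80 and -1.02, and the other subunits lie between -0.25 and -0.05 on the left and between -0.06 and 0.36 on the right.

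No gene of the neighbouring steps of glycosylation was called, a count to be read beside the share of all genes called, at most 0.289% without the block and at most 4.58% with it. Of 23 genes that build the lipid-linked glycan which OST transfers, 14 genes of glycan trimming and glycoprotein folding and 10 oxidoreductases of the endoplasmic reticulum, none passed in any of the 5 comparisons in edgeR, with or without the block. In KO DHT over KO DMSO their median log2 fold changes were -0.07, -0.02 and -0.06, beside -0.00 for all genes. In KO DHT+ENZ over KO DMSO, the smallest p in these lists belonged to Nus1, a subunit of the enzyme that makes the lipid carrier, at 0.21 (SE 0.10), and Dpm1, the catalytic subunit of dolichol-phosphate mannose synthase, at 0.19 (SE 0.10). Alg8, a glucosyltransferase, followed at -0.19 (SE 0.12). Among the trimming and folding genes Ganab, Ngly1 and Canx came first at -0.08, 0.13 and 0.08, and among the oxidoreductases Pdia5, P4hb and Tmx1 at -0.16, -0.18 and -0.14. None of these differences passed (adjusted p of 0.89 or more, edgeR). Of 18 genes listed for magnesium transport, 17 could be tested. Their median was -0.02 in KO DHT over KO DMSO and 0.06 in KO DHT+ENZ over KO DMSO, and none passed in either. Nipa1, which encodes a magnesium transporter, was the only one to pass anywhere, at 0.27 (SE 0.07; adjusted p = 0.0431, edgeR with the block) in KO DHT+ENZ over WT DMSO, against that background of 4.58%. Without the block its adjusted p was 0.28. Cnnm3, Slc41a3 and Trpm6 had the smallest p of the list in KO DHT+ENZ over KO DMSO, at -0.13, -0.22 and -0.24, and none of them passed (adjusted p = 1, edgeR).

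The genes on either side of Magt1 on chromosome X showed no called change in KO DHT over KO DMSO, where 0% of all genes tested were called. Atrx, which encodes a chromatin remodeller, had a log2 fold change of 0.28 (SE 0.19; adjusted p = 1, edgeR), Cox7b, a subunit of cytochrome c oxidase, had -0.01 (SE 0.11) and Atp7a, a copper transporter, had 0.22 (SE 0.28). In KO DHT+ENZ over KO DHT these genes had -0.25, 0.18 and -0.10. None was called, beside 0.265% of all genes without the block and 3.48% with it. Cox7b passed with the block in KO DHT+ENZ over WT DMSO, where 4.58% of all genes did (adjusted p = 0.0238); without the block its log2 fold change there was 0.36 (SE 0.11; adjusted p = 0.232, edgeR). Cypt2, Fgf16 and Tlr13, the remaining genes among the 3 nearest on each side, averaged under 0.03 TPM and were not tested.

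Across the 16 libraries, the genes whose log2 CPM followed that of Magt1 most closely were Slc4a8, a bicarbonate transporter (Pearson r = 0.82), Ncan, which encodes the proteoglycan neurocan (0.79), Lmcd1 (0.79), Cd276, an immune checkpoint molecule (0.78), and Smarca2, an ATPase of SWI/SNF remodelling complexes (0.78). They were the highest of the 9744 genes that averaged 10 CPM or more, whose median r was -0.14 and whose 5th to 95th percentiles ran from -0.58 to 0.45. The libraries share replicate numbers and groups, so these values describe this set of libraries only. Their log2 fold changes in KO DHT over KO DMSO, the comparison on which Magt1 was chosen, were 0.13, 0.17, -0.01, 0.03 and 0.14. In KO DHT+ENZ over KO DHT they were -0.29, -0.27, -0.44, -0.21 and -0.18, the direction of Magt1. None passed there (adjusted p of 0.51 or more, edgeR). The 5 genes were picked for following Magt1 in these same libraries, so a shared direction is no independent evidence.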

How the data were processed

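The submitters' processing notes name kallisto and the build GRCm39; the kallisto version is not given in the sources used here. Estimated counts, lengths and TPM stand in the deposited files per transcript, per the file headers. The deposited estimated counts carry no normalization between libraries. The deposited TPM were used for levels between genes and for transcript shares. Of 146190 transcripts per file, 134953 matched by identifier to 49114 genes of GENCODE M21. That annotation is on GRCm38, so it was used for names, structures and sequences in transcript positions, and no genome coordinates are given. The matched share of a library's counts was 98.8% to 99.1%.

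Gene sums of the estimated counts were rounded and fitted in edgeR 4.0.16 (R 4.3.3): TMM normalization, filterByExpr, and 1 quasi-likelihood model of the 4 groups over all 16 libraries. Benjamini-Hochberg adjustment ran over all 16969 genes, or over all 50603 transcripts in the same model per transcript. A call needs an adjusted p under 0.05 and no set fold. Each SE is the size of the log2 fold change over the root of its F statistic. CPM use the same normalization. Transcript shares were compared by exact permutation over libraries. Alternatives were DESeq2 1.42.0, no filter, the 8 libraries of a comparison alone, a replicate block, and each library left out. Scripts were tested on simulated counts. P-values measure the spread between these cultures, whose separate origin beyond 2 litters is not given.

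The members and gene lists were chosen with earlier results of these data known. Named were Magt1 and its transcripts, the listed OST subunits, list members called in either edgeR model, the 3 of each other pathway list with the smallest p in KO DHT+ENZ over KO DMSO, the 3 nearest genes on each side, the 5 genes most like Magt1, the sex-linked genes, and Chd1. After group means were removed, same-numbered libraries correlated across genes at r = 0.16 to 0.79 in 4 comparisons, above the minimum of 0.1 set for pairing. In KO DHT+ENZ over WT DMSO, pair 1 reached 0.08, below it. Of the 16 libraries, 10 were closest to one with their own number.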

Additional observations from a re-analysis of the deposited data

Results flagged for a closer look

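Of 60 groups of 4 libraries examined, 6 held a library far from the other 3, by the ratio of its gap to the group's whole range (above Dixon's 95% critical value). Chance flags about 1 in 20 groups. Magt1-204 in KO DHT+ENZ had a ratio of 0.9653, with replicate 4 at 37.3 CPM and the others at 9.23 to 10.2 CPM. Magt1-204 in KO DHT had a ratio of 0.8291, with replicate 2 at 38.2 CPM and the others at 55.1 to 58.6 CPM. Magt1-203 in KO DMSO had a ratio of 1, with replicate 4 at 0.57 CPM and the others at 0. The flags do not cover Magt1-202, which averaged 0.531 TPM over the 16 libraries. Its replicate 4 also stood apart, at 3.15 CPM in KO DMSO, with the others at 0 to 0.0242 CPM. In KO DHT+ENZ replicate 4 had 2.93 CPM of it, with the others at 0 to 0.386 CPM. Among the other OST subunits, Stt3b in KO DHT had a ratio of 0.8458, with replicate 1 at 247 CPM and the others at 272 to 277 CPM. Dad1 in KO DMSO had a ratio of 0.8303, with replicate 3 at 99.0 CPM and the others at 81.8 to 84.7 CPM. Tmem258 in WT DMSO had a ratio of 0.8766, with replicate 1, the shallowest library, at 44.3 CPM and the others at 31.5 to 33.1 CPM.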

How the results depend on the processing

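With each library left out in turn, the log2 fold change of Magt1 ranged from 0.67 to 0.90 in KO DHT over KO DMSO, -1.28 to -0.90 in KO DHT+ENZ over KO DHT (adjusted p 0.0711 to 0.465), -0.48 to -0.10 in KO DHT+ENZ over KO DMSO, -0.46 to -0.00 in KO DHT+ENZ over WT DMSO, and -0.17 to 0.21 in KO DMSO over WT DMSO, where the sign turned. In the same order, the difference in the Magt1-204 share ranged from 21.9 to 30.99, -40.0 to -28.8 (p 0.0286 to 0.0571), -12.2 to -1.02, -7.11 to 6.29 and 0.74 to 11.2 percentage points. For KO DHT+ENZ over KO DHT, the share p was 0.0286 with any 1 KO DHT+ENZ library left out. It was 0.0571 with any 1 KO DHT library left out (exact permutation tests). Genes called ranged from 0 to 0, 2 to 116, 0 to 98, 0 to 79 and 0 to 0, and transcripts called from 0 to 0, 0 to 5, 0 to 1, 0 to 1 and 0 to 2. As a share of estimated counts, the share difference was -30.3 (p = 0.0571) for KO DHT+ENZ over KO DHT and -1.67 (p = 0.943) for KO DHT+ENZ over WT DMSO, where it turned sign (exact permutation tests).

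With the replicate block, the log2 fold change of KO DHT+ENZ over KO DHT was -1.03 (adjusted p = 0.00516, edgeR), and in DESeq2 it was -1.01 (adjusted p = 0.00842). Exact sign flips of the pairs left the share difference at -32.8 with p = 0.125, the smallest that 4 pairs allow. Genes called in KO DHT+ENZ over KO DHT, over KO DMSO and over WT DMSO were 45, 43 and 49 in the edgeR model without the block. They were 590, 499 and 777 with the block, 17, 9 and 17 without a filter, and 211, 180 and 313 in DESeq2. With the 8 libraries of a comparison alone, 0 were called in KO DHT+ENZ over KO DMSO and 0 over WT DMSO. Transcripts called were 0 in every comparison without the block, against 35, 92 and 80 with it and 102, 81 and 155 in DESeq2, and 1 over WT DMSO without a filter. DESeq2 called 34 transcripts in KO DHT over KO DMSO and 39 in KO DMSO over WT DMSO. The block changed no other call on Magt1, and the causes were not tested. The pairing in KO DHT+ENZ over WT DMSO rests on the number alone. Alternatives planned for Tusc3 were not run. Single transcripts are limited by the division of shared reads, and arms of 4 libraries limit every interval.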
